A study of Mus musculus with 8 samples.

Results

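The BCL2 family genes described here were the 10 genes *Bax*, *Bak1*, *Bbc3*, *Pmaip1*, *Bid*, *Bcl2l11*, *Hrk*, *Bcl2*, *Bcl2l1* and *Mcl1*, which were taken by symbol from the 54532 genes of a bulk RNA-seq count table of the mouse retina. The table held 4 *Mettl3*-CKO and 4 control samples, each a library from retina at p7 by the sample labels (the study's methods give p6). *Mettl3*-CKO mice were *Six3-Cre*+; *Mettl3*floxed/floxed, so that *Mettl3*, the catalytic subunit of the writer complex that puts m6A on RNA, is deleted where *Six3-Cre* is active, in retinal progenitor cells and the cells they give rise to, with efficient deletion described by the study for the central retina. Controls were littermates by the series description, and the labels give neither their Cre nor their floxed alleles, nor whether each library came from a separate animal, so that the p-values measure the spread between these samples. The comparison asks whether RNAs of the machinery that decides cell survival differ between *Mettl3*-CKO and control retinas.

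Proteins of the BCL2 family govern the mitochondrial route of apoptosis. Anti-apoptotic members (MCL1, BCL-XL, BCL2) hold the effectors BAX and BAK in check, and BH3-only members (BIM, PUMA, BID, HRK, NOXA) respond to stress or loss of survival signals by blocking the former or activating the latter. Once active, the effectors open the outer mitochondrial membrane, cytochrome c escapes, and the apoptosome starts the caspases. The developing retina removes many of its neurons by this route, and BAX is needed for much of the developmental death of retinal ganglion cells. Much of the control of these proteins acts on their stability, splicing or location, which counts per gene do not show.

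Total counts were between 16227095 and 20281517 per sample, and 3 counts corresponded to between 0.148 and 0.185 CPM, the counts relative to the total of the library, which are TMM-scaled wherever a level of a gene is given. *Mettl3* itself was at 21.1, 29.6, 21.3 and 24.3 CPM in *Mettl3*-CKO samples 1 to 4 and at 33.8, 32.5, 29.4 and 29.3 CPM in controls 1 to 4, so that *Mettl3*-CKO sample 2 lay among the controls. Its log2 fold change was -0.38 (SE 0.12) with an adjusted p = 0.0602 in edgeR, just short of the threshold of 0.05 used throughout, and counts over the whole gene do not separate the deleted part from the rest. The libraries are therefore named by their labels. Control 1 and control 4 stood apart from the other controls in earlier results of these data, and the 8 lens markers summed to 2999 CPM in control 4 against 6.14 to 63.4 CPM in the other controls. Results were therefore also computed without these 2 samples.

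*Bax* was the 1 member that was called higher in *Mettl3*-CKO retinas, by 1.32-fold, and the other 9 members were called in neither direction. Expressed as a log2 fold change, *Bax* differed by 0.41 with a 95% interval of 0.15 to 0.66, and it just passed the threshold (edgeR's quasi-likelihood test, adjusted p = 0.0481). All 10 members passed the low-count filter. The count of 1 of 10 members higher stands against 6.49% of the 17998 genes tested, and the count of 0 of 10 lower against 4.05%, and 1 of 10 in either direction against 10.5%, so that no share sets the family apart from all genes. At an unadjusted p under 0.05, 1 member was higher and 0 were lower, against 13.5% and 11.1% of all genes. DESeq2 also called 1 higher and 0 lower, and limma voom called 2 higher (*Bax* and *Mcl1*) and 0 lower. The median log2 fold change of the 10 members was 0.06, with 7 above and 3 under 0, beside a median of -0.01 over all genes. In none of the 10 were the 4 *Mettl3*-CKO samples clear of the 4 controls, which was the case for 17.4% of all genes (9.77% higher and 7.58% lower). The retina is a mixture of cells, and in such bulk samples fewer cells of a type and less RNA per cell cannot be told apart.

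**Figure D1:**
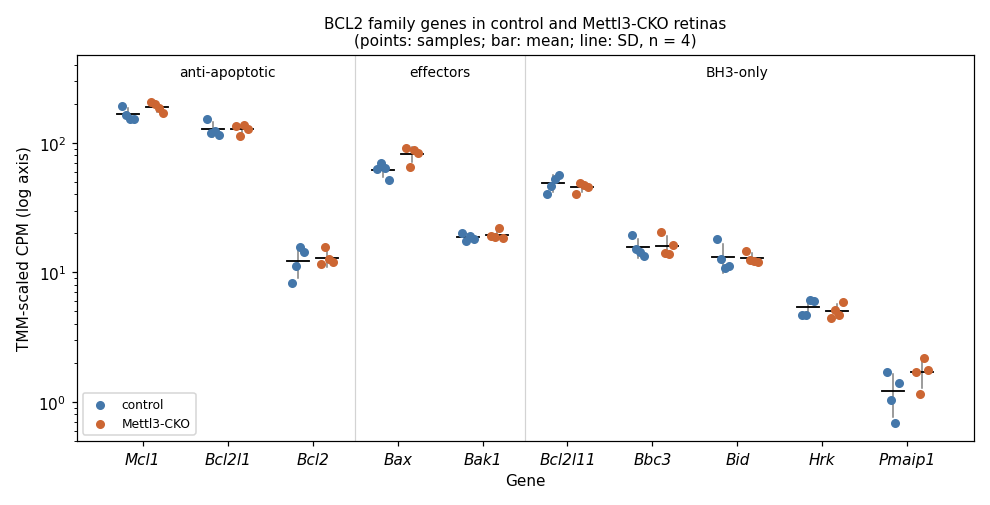
TMM-scaled CPM (log axis) of the 10 BCL2 family genes in the 4 control (blue) and 4 *Mettl3*-CKO (orange) samples, with the mean (black bar) and SD (grey line) of each group. The groups overlap for every gene, and for *Bax* 3 of the 4 *Mettl3*-CKO samples lie above all controls.

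Levels per gene length were compared as FPKM, with lengths and counts as deposited. These lengths cover all exons of a gene and can exceed its longest protein-coding transcript. They were 1576 against 1100 bases for *Bax*, 4586 against 2568 for *Bcl2l1* and 3418 in both cases for *Mcl1*. The order of these 3 genes therefore depends on the length used. The members spanned about 2 orders of magnitude. By the deposited lengths, *Mcl1* was highest in controls at 48.1 ± 4.55 FPKM (SD, n = 4), followed by *Bax* at 39.0 ± 4.72 and *Bcl2l1* at 27.7 ± 3.17. A middle group held *Bak1* at 7.73 ± 0.373, *Bbc3* at 7.27 ± 1.10, *Bcl2l11* at 6.07 ± 0.981 and *Bid* at 3.67 ± 0.852. *Bcl2* at 1.34 ± 0.366, *Hrk* at 0.947 ± 0.148 and *Pmaip1* at 0.452 ± 0.161 FPKM were lowest. The retina at this age therefore held far more *Mcl1* and *Bcl2l1* RNA per length than *Bcl2* RNA, and more RNA of the effector *Bax* than of *Bak1*. The order of the means was the same in *Mettl3*-CKO retinas, where *Mcl1* was at 55.7 ± 4.72 and *Bax* at 52.0 ± 7.31 FPKM. Neighbours in this order were not all distinct, since the control samples of *Bak1* and *Bbc3*, of *Bbc3* and *Bcl2l11*, of *Bcl2l11* and *Bid*, and of *Bcl2* and *Hrk* overlapped, as did the *Mettl3*-CKO samples of *Mcl1* and *Bax*.

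Summed by role, the 3 anti-apoptotic genes came to 85.2 ± 5.05 FPKM in *Mettl3*-CKO and 77.1 ± 7.20 FPKM in control retinas (SD, n = 4). The 2 effectors came to 60.2 ± 7.59 against 46.8 ± 4.64 FPKM, and the 5 BH3-only genes to 18.4 ± 1.38 against 18.4 ± 1.11 FPKM. The sum of the BH3-only genes was thus nearly the same in both groups, while that of the effectors was higher in *Mettl3*-CKO retinas through *Bax*. These sums are descriptions over chosen genes and were not tested.

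*Mcl1*, which encodes a short-lived anti-apoptotic protein and lies at chr3:95658788-95663176 (GRCm38, plus strand), was at 206, 199, 186 and 169 CPM in *Mettl3*-CKO samples 1 to 4 and at 192, 165, 153 and 152 CPM in controls 1 to 4. The *Mettl3*-CKO samples were the higher ones on the whole, but control 1 reached into their range. The log2 fold change was 0.20 (SE 0.10, 95% interval -0.01 to 0.41, adjusted p = 0.225). Without control 1 it was 0.28 with an adjusted p = 0.0236, which passed the threshold, and without controls 1 and 4 together it was 0.26 with an adjusted p = 0.0965, not called. Limma voom, which gives samples unequal weights, called it (log2 fold change 0.24, adjusted p = 0.0352).

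*Bcl2l1* encodes BCL-XL and, by another splice form, the pro-apoptotic BCL-XS, and lies at chr2:152780668-152831728 (minus strand). It was at 136, 114, 137 and 129 CPM in *Mettl3*-CKO samples 1 to 4 and at 153, 119, 124 and 115 CPM in controls 1 to 4. Both the highest and the second lowest value belonged to controls, and the groups lay over each other. Its log2 fold change was 0.01 (SE 0.10, adjusted p = 0.969), and its 95% interval of -0.21 to 0.23 bounds the difference at this precision. Splice forms were not separated in the counts.

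*Bcl2*, the founding member of the family, is spread over chr1:106538178-106714274 (minus strand). It was at 11.5, 15.8, 12.7 and 11.9 CPM in *Mettl3*-CKO samples 1 to 4 and at 8.35, 11.1, 15.6 and 14.3 CPM in controls 1 to 4. The controls varied more than the *Mettl3*-CKO samples and enclosed 3 of them. In edgeR the log2 fold change was 0.07 (SE 0.18, 95% interval -0.32 to 0.47, adjusted p = 0.860), and its sign turned to -0.08 without control 1.

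*Bax* encodes the effector that moves from the cytosol to mitochondria, and its gene lies at chr7:45461697-45466898 (GRCm38, minus strand). The gene was at 91.2, 65.6, 87.4 and 83.4 CPM in *Mettl3*-CKO samples 1 to 4 and at 62.9, 69.4, 63.5 and 51.5 CPM in controls 1 to 4, from between 853 and 1706 counts. *Mettl3*-CKO samples 1, 3 and 4 were above every control, *Mettl3*-CKO sample 2 was above 3 controls and under control 2, and control 4 was the lowest of all. When each *Mettl3*-CKO sample was set against each control, it was the higher in 15 of 16 pairings. In a two-sided exact permutation test of log2 CPM over the 70 arrangements of the samples, p = 0.0571.

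The *Bax* call depended on single samples and on settings, whereas its direction did not. Leaving out 1 sample at a time gave log2 fold changes between 0.33 and 0.50, with adjusted p-values between 0.0234 and 0.172, and the call held in 2 of these 8 fits (without *Mettl3*-CKO sample 2 and without control 1). Without controls 1 and 4 together the log2 fold change was 0.30 with an adjusted p = 0.137. The adjusted p was 0.0177 in DESeq2, 0.0129 in limma voom, 0.0162 with no low-count filter and 0.0509 with RLE size factors.

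**Figure D2:**
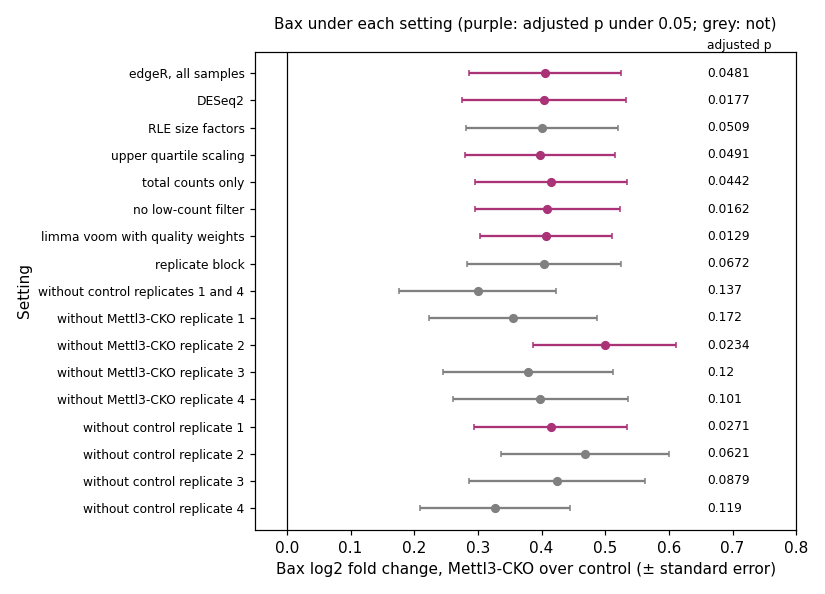
Log2 fold change of *Bax* (horizontal axis, Mettl3-CKO over control, with the standard error) under each setting or sample left out (vertical axis), with the adjusted p printed at the right. All estimates lie between 0.30 and 0.50, and points in purple have an adjusted p under 0.05 while those in grey do not.

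*Bax* and *Bbc3* are both known targets of p53, so their promoters are shown, as the 250 bases before and 50 bases after a transcription start (RefSeq, GRCm38.p6, 5′ to 3′ on the strand of the gene). Capitals mark an exact match to the p53 half-site, a palindromic motif of 10 bases that was searched once for both strands. The first is that of *Bax* at chr7:45466849-45467148 (minus strand) and the second is 1 of 3 of *Bbc3*, at chr7:16309333-16309632 (plus strand).
Bax promoter: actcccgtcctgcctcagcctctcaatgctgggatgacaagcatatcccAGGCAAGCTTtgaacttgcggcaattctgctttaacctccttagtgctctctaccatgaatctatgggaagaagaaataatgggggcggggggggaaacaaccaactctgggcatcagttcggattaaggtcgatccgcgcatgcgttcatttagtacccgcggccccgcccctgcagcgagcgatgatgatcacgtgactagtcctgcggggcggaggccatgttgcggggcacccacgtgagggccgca
Bbc3 promoter: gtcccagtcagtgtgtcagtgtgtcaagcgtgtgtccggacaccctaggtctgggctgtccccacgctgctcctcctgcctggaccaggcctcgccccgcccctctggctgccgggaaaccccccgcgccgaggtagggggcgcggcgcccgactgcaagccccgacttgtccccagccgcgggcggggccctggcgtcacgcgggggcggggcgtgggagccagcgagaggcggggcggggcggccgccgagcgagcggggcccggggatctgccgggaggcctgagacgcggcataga
The match in the *Bax* window begins 201 bases before the start. It was the only match in the 14 windows searched, which belong to 9 of the members. No window of *Pmaip1* was searched, so whether that gene has a match is not known here. Of all 32851 windows, 8.36% hold at least 1. The *Bbc3* windows are richer in G and C, at 74.7% to 78.0% against 57.3% in *Bax*. A match describes these letters alone, and the lack of one says nothing about binding of p53 elsewhere.

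Since METTL3 methylates adenosine mainly within short motifs of which GGACT is a common form, the letters GGACT were counted on the strand of each gene's longest protein-coding transcript (GENCODE vM21). *Bax* held 2.73 per kilobase, more than 96.9% of the 14285 tested genes with such a transcript, *Bbc3* held 2.76 (97.1%) and *Mcl1* held 2.34 (94.0%). The other members were at 1.83 (*Bid*), 1.68 (*Bak1*), 1.30 (*Hrk*), 1.25 (*Bcl2*), 1.17 (*Bcl2l1*), 0.993 (*Bcl2l11*) and 0.733 (*Pmaip1*) per kilobase, around a median of 1.05 over all genes, of which 7.11% held none. The 3 members with the most GGACT per kilobase had log2 fold changes of 0.41 (*Bax*), 0.20 (*Mcl1*) and 0.05 (*Bbc3*), while *Pmaip1*, with the fewest, had the largest of the family at 0.50, so the orders of these measures differed. The 3 stretches of *Bax* and the first of the 3′ UTR of *Mcl1* are printed with the motif in capitals, at chr7:45466710-45466734 (5′ UTR), chr7:45465289-45465313 (coding), chr7:45463436-45463460 (coding) and chr3:95660832-95660856. Whether these adenosines were methylated was not analysed here.
Bax 5′ UTR: gggaggcggaGGACTaggcccggtc
Bax coding, upstream: acgtggacacGGACTccccccgaga
Bax coding, downstream: gctggacactGGACTtcctccgtga
Mcl1 3′ UTR: gtgcaataggGGACTcttaaagctc

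*Bak1*, whose product is the effector resident on mitochondria, lies at chr17:27019810-27029009 (minus strand). It was at 19.2, 18.7, 22.1 and 18.3 CPM in *Mettl3*-CKO samples 1 to 4 and at 20.3, 17.5, 19.0 and 18.1 CPM in controls 1 to 4. *Mettl3*-CKO sample 3 was the highest, and the remaining 7 samples were within a narrow range shared by both groups. The log2 fold change was 0.06 (SE 0.10, 95% interval -0.16 to 0.29, adjusted p = 0.763), an interval that overlaps that of *Bax*, and whether the effectors differed from each other was not tested.

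Among the BH3-only genes, *Bcl2l11* (BIM, which can both activate the effectors and bind all anti-apoptotic members) lies at chr2:128126038-128162547 (plus strand). It was at 40.4, 48.6, 47.5 and 46.0 CPM in *Mettl3*-CKO samples 1 to 4 and at 40.2, 46.0, 52.8 and 56.7 CPM in controls 1 to 4. The lowest and the highest values were both controls. Its log2 fold change was -0.10 (SE 0.11, 95% interval -0.34 to 0.14, adjusted p = 0.637).

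*Bbc3* (PUMA) lies at chr7:16308393-16318205 (plus strand). It was at 20.3, 14.0, 13.8 and 16.3 CPM in *Mettl3*-CKO samples 1 to 4 and at 19.4, 15.1, 14.4 and 13.4 CPM in controls 1 to 4. Sample 1 was the highest of its group in both genotypes, and the remaining samples were mixed. In edgeR the log2 fold change was 0.05 (SE 0.15, 95% interval -0.28 to 0.38, adjusted p = 0.890), and it was -0.08 without *Mettl3*-CKO sample 1.

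*Bid*, whose product is cut by caspase 8 and so links death receptors to mitochondria, lies at chr6:120891930-120916853 (minus strand). It was at 14.7, 12.4, 12.3 and 11.9 CPM in *Mettl3*-CKO samples 1 to 4 and at 18.0, 12.6, 10.8 and 11.2 CPM in controls 1 to 4. Again sample 1 was the highest of each group. The log2 fold change was -0.04 (SE 0.16, 95% interval -0.39 to 0.31, adjusted p = 0.920), and it turned to 0.15 without control 1.

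*Hrk*, a BH3-only gene used mostly by neurons, lies at chr5:118164648-118189478 (plus strand). It was at 4.42, 5.16, 4.73 and 5.91 CPM in *Mettl3*-CKO samples 1 to 4 and at 4.71, 4.71, 6.14 and 6.04 CPM in controls 1 to 4. Each group held lower and higher samples, with a log2 fold change of -0.09 (SE 0.17, 95% interval -0.46 to 0.27, adjusted p = 0.788).

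*Pmaip1* (NOXA, which binds MCL1) had the fewest counts of the family, between 13 and 41 per sample. It was at 1.71, 1.16, 2.18 and 1.76 CPM in *Mettl3*-CKO samples 1 to 4 and at 1.71, 1.04, 0.682 and 1.39 CPM in controls 1 to 4. The 2 highest values were *Mettl3*-CKO samples and the 2 lowest were controls, with overlap between them. Its log2 fold change of 0.50 (SE 0.32) was the largest of the family, yet the 95% interval of -0.19 to 1.19 included 0 (adjusted p = 0.375), so that a difference of the size seen for *Bax* was not detectable at this depth. The estimate was 0.31 without control 3 and 0.73 without control 1, 0.99 without controls 1 and 4 (adjusted p = 0.101) and 0.83 in limma voom (adjusted p = 0.0526), and it was called in none of them.

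Some exons of the members overlap other genes, and whether strand was used in counting is not stated in the sources used here. *Bak1* shares 25.5% of its exonic bases with *Ggnbp1* on the opposite strand (between 151 and 212 counts per sample), and *Bid* shares 17.7% with *Bcl2l13* on the opposite strand (between 2301 and 2966 counts). *Bax* shares 12.2% with *Gm45808* on its own strand, and *Bcl2* shares 6.09% with the antisense gene *D630008O14Rik*, both of which had at most 1 count in any sample. Reads from bases shared on opposite strands cannot be told apart without strand, so the values of *Bak1* and *Bid* are less certain. Strand would not separate *Bax* from *Gm45808*, and how many reads of *Bax* this affected was not examined.

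The balance of effector to anti-apoptotic RNA was described as a ratio per kilobase within each sample, with no test. On the log2 scale the ratio of *Bax* to *Bcl2* was 5.53, 4.59, 5.32 and 5.34 in *Mettl3*-CKO samples 1 to 4 and 5.45, 5.18, 4.57 and 4.39 in controls 1 to 4. The means were 5.20 ± 0.41 and 4.90 ± 0.50 (SD, n = 4), so the difference of 0.30 was smaller than the SD of either group. The ratio of *Bax* to *Bcl2l1*, whose RNA was far more abundant than that of *Bcl2*, was 0.88 ± 0.09 against 0.49 ± 0.22 on the log2 scale, a difference of 0.39, with 1 *Mettl3*-CKO sample under the highest control. The ratio of *Bax* to *Mcl1* differed by 0.20, and its groups overlapped too.

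**Figure D3:**
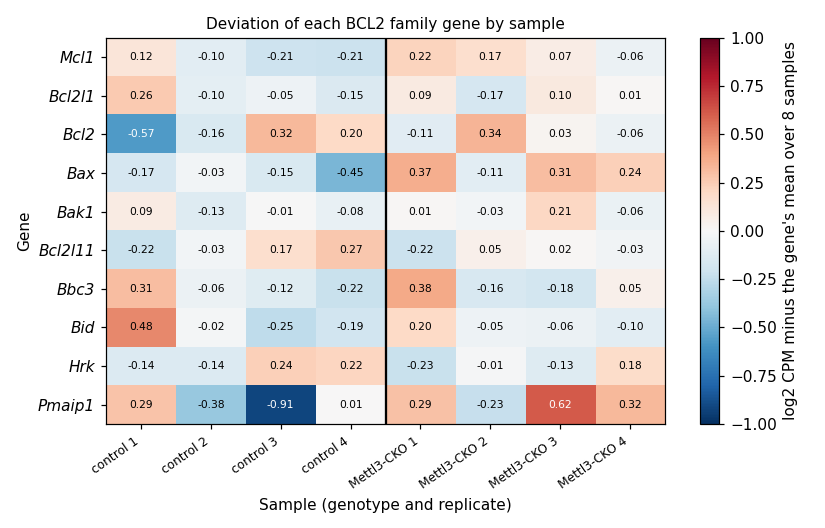
Log2 CPM of each BCL2 family gene (rows) in each sample (columns) minus the mean of that gene over the 8 samples, in red where above and in blue where under it. *Bax* is at or above 0.24 in 3 *Mettl3*-CKO samples and under 0 in all controls, while for *Bid* and *Bcl2* the extreme values are those of control 1.

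Variation within a group was as wide as the difference between groups for most members. Relative to its own group's mean log2 CPM, control 1 was higher for *Bid* (0.48), *Bbc3* (0.33), *Bcl2l1* (0.27) and *Mcl1* (0.22), and lower for *Bcl2* (-0.52), *Bcl2l11* (-0.27) and *Hrk* (-0.18). *Mettl3*-CKO sample 1 deviated with the same signs, by 0.20 for *Bid*, 0.35 for *Bbc3*, 0.08 for *Bcl2l1* and 0.12 for *Mcl1*, and by -0.16 for *Bcl2*, -0.17 for *Bcl2l11* and -0.18 for *Hrk*. The likeness did not extend to every member, since control 1 deviated most for *Pmaip1* (0.54 against 0.04 in *Mettl3*-CKO sample 1) and *Bak1* had opposite signs (0.12 against -0.02). The sample numbers were not taken to pair a *Mettl3*-CKO with a control sample, so this likeness is described and nothing more. By the smallest root mean square difference from *Bax* in centred log2 CPM over the 8 samples, the most similar genes were *Gm43254* (0.074), *Gm14121* (0.076) and *Glrx5* (0.079). Of these, *Glrx5*, a gene of mitochondrial iron-sulphur cluster assembly, was called higher (log2 fold change 0.41, adjusted p = 0.0210).

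The other genes of the family showed no call in either direction. Of 14 such genes, 9 were tested and edgeR called 0 higher and 0 lower, as did DESeq2 and limma voom, with a median log2 fold change of -0.02. *Bcl2a1a*, *Bcl2a1b*, *Bcl2a1d*, *Bcl2l10* and *Bcl2l14* had too few counts to be tested. The largest values were 0.31 (SE 0.34, adjusted p = 0.641) for *Bcl2l15*, at under 1 CPM in every sample, and -0.29 (SE 0.10, adjusted p = 0.0932) for *Bnip3l*, a mitophagy receptor. *Bnip3l* was the 1 gene of this list at an unadjusted p under 0.05, at 181, 193, 208 and 199 CPM in *Mettl3*-CKO samples 1 to 4 and at 291, 219, 219 and 224 CPM in controls 1 to 4, with the groups apart. Over all genes, 11.1% were lower at that level and 7.58% were lower with the groups apart.

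Downstream of the mitochondria, the apoptosome and caspase genes were likewise not called. Of 16 genes all but *Birc3* were tested, and edgeR called 0 of 15 higher and 0 lower, with a median log2 fold change of -0.01. DESeq2 called 0 in either direction and limma voom called 1 lower. The largest values were 0.23 (SE 0.23, adjusted p = 0.592) for *Endog*, a mitochondrial nuclease, and -0.19 (SE 0.13, adjusted p = 0.383) for *Diablo*, whose product relieves caspases from their inhibitors. At an unadjusted p under 0.05 there were 0 higher and 1 lower, *Casp9*, the caspase of the apoptosome, which was named after its values were seen. *Casp9* was at 37.9, 42.4, 43.0 and 44.0 CPM in *Mettl3*-CKO samples 1 to 4 and at 48.2, 45.2, 47.3 and 50.5 CPM in controls 1 to 4, with the groups apart and a log2 fold change of -0.19 (adjusted p = 0.175). The shares over all genes were 11.1% lower at that unadjusted level and 7.58% lower with the groups apart.

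The death receptor arm, which reaches caspase 8 without mitochondria, had the highest median of the routes that end in caspases, at 0.52 over its 7 tested genes. Of these 7 genes 1 was called higher and 0 were called lower, against 6.49% and 4.05% of all genes tested. The gene called higher was *Tnfrsf10b*, the receptor for the ligand TRAIL and itself a known p53 target. It was at 3.37, 2.96, 2.23 and 2.49 CPM in *Mettl3*-CKO samples 1 to 4 and at 0.642, 1.53, 1.42 and 1.69 CPM in controls 1 to 4, so that every *Mettl3*-CKO sample was above every control. Its log2 fold change was 1.07 (SE 0.29, adjusted p = 0.0350). *Fadd*, the adaptor that binds caspase 8, had the second largest value, 0.54 (adjusted p = 0.0832), and was also apart between groups. With *Tradd*, 3 of the 7 tested genes were apart and higher in *Mettl3*-CKO samples, against 9.77% of all genes.

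Besides *Tnfrsf10b* and *Fadd*, the genes of this arm at an unadjusted p under 0.05 were *Tradd* (0.54, adjusted p = 0.0510), *Ripk1* (0.52, adjusted p = 0.0535) and *Casp8* (0.46, adjusted p = 0.104), named after their values were seen, so that 5 of 7 were higher at that level against 13.5% of all genes. *Tnfrsf1a* and *Cflar*, the inhibitor of caspase 8, were at 0.12 and 0.05. The count of calls depended on the setting, with 3 in DESeq2 and in limma voom and 0 without controls 1 and 4, and it was 0 without either of *Mettl3*-CKO samples 1 and 2 or either of controls 2 and 3, and 3 without control 1. *Fas*, *Fasl*, *Tnfsf10* and *Tnf* had too few counts to be tested.

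**Figure D4:**
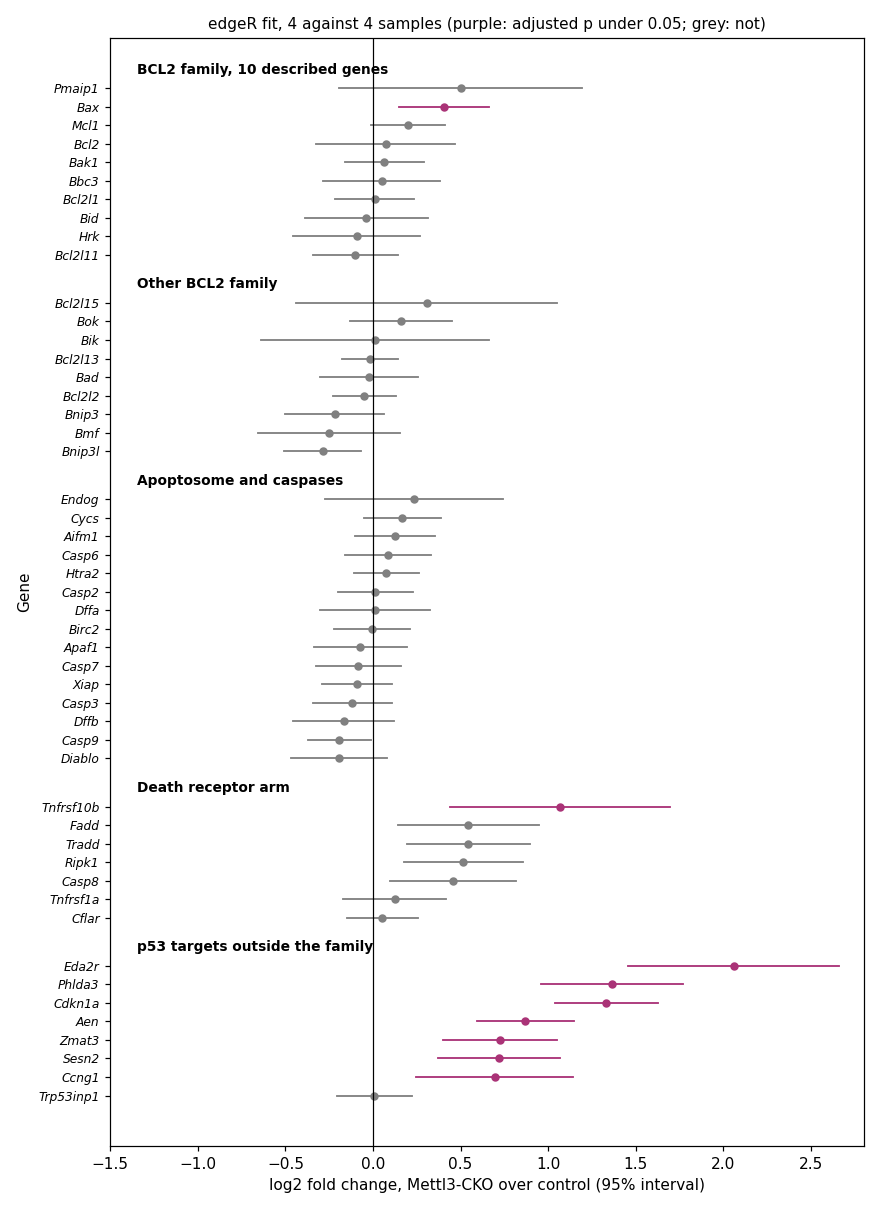
Log2 fold change (horizontal axis, Mettl3-CKO over control) with its 95% interval for every tested gene (vertical axis) of the BCL2 family, the apoptosome and caspases, the death receptor arm and the p53 targets outside the family. Purple marks an adjusted p under 0.05, which was reached by *Bax*, *Tnfrsf10b* and 7 p53 targets.

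Most of the 8 p53 targets listed outside the family were called higher. edgeR called 7 of 8 higher and 0 lower, against 6.49% and 4.05% of all genes tested, with a median log2 fold change of 0.80. They were *Eda2r* (2.06, SE 0.28), *Phlda3* (1.36, SE 0.19), *Cdkn1a* (1.33, SE 0.14), *Aen* (0.87, SE 0.13), *Zmat3* (0.72, SE 0.15), *Sesn2* (0.72, SE 0.16) and *Ccng1* (0.69, SE 0.21). Of these, 6 were apart between groups and higher in *Mettl3*-CKO samples, against 9.77% of all genes. The groups overlapped for *Ccng1*, which had an adjusted p = 0.0497. *Cdkn1a*, the cell cycle inhibitor p21, was at 98.3, 62.0, 82.0 and 68.8 CPM in *Mettl3*-CKO samples 1 to 4 and at 32.1, 31.2, 26.9 and 33.4 CPM in controls 1 to 4, well apart. *Trp53inp1* was at 0.01 (SE 0.10, adjusted p = 0.978). The list does not hold every p53 target. *Mdm2*, counted below among the upstream regulators and named after its values were seen, is also one. On the log2 CPM scale it was at 6.36, 6.59, 6.62 and 6.69 in *Mettl3*-CKO samples 1 to 4. Controls 1 to 4 were at 6.38, 6.43, 6.66 and 6.66, so the groups overlapped. Earlier results of these data had already shown p53 targets higher, so the list is not independent evidence of that direction.

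Set beside these, the members taken here as p53 targets were *Bax* at 0.41, *Pmaip1* at 0.50 and *Bbc3* at 0.05. Each was under the median of the list outside the family in the edgeR fit over all samples, a difference that was not tested. Other members may also be p53 targets. *Pmaip1* was at 0.83 in limma voom and 0.99 without controls 1 and 4, settings for which the median of the list is not given here. The summed CPM of the 8 targets was 490, 357, 404 and 378 in *Mettl3*-CKO samples 1 to 4 and 315, 263, 234 and 264 in controls 1 to 4. Among the *Mettl3*-CKO samples its order was that of *Bax*, with sample 2 lowest in both, whereas among the controls it was not, since control 1 had the highest sum and control 2 the highest *Bax*. Of the 6 targets outside the family with a promoter window, 3 held a p53 half-site. This count is per gene, and a gene can have more than 1 window. It is therefore not comparable with the 8.36% of single windows.

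The regulators that stand upstream of the family were not called. Of the 10 genes tested, edgeR called 0 higher and 0 lower, DESeq2 called 0 and 1, and limma voom called 0 and 2, with a median log2 fold change of -0.01. The largest values were 0.81 (SE 0.42, adjusted p = 0.258) for *Trp73* and -0.32 (SE 0.10, adjusted p = 0.0683) for *Jun*. At an unadjusted p under 0.05 there were 0 higher and 3 lower, against 13.5% and 11.1% of all genes. The 3 were *Jun*, *Trp53* (-0.28, adjusted p = 0.103) and *Atf4* (-0.28, adjusted p = 0.161). *Trp53*, which encodes p53, was at 57.8, 59.7, 48.1 and 56.6 CPM in *Mettl3*-CKO samples 1 to 4 and at 61.2, 69.6, 76.6 and 62.4 CPM in controls 1 to 4. The groups were apart, with the *Mettl3*-CKO samples lower, which was the case for 7.58% of all genes. *Atf4* and *Trp53* were named after their values were seen.

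Marker genes of cell types moved between the groups as well, and their part in the values of the BCL2 family was not tested. Of 8 rod markers 0 were called higher and 5 lower, and their summed CPM was 1280 to 2363 in *Mettl3*-CKO and 2502 to 3713 in control samples. Of 8 markers of dividing progenitors 3 were called higher and 0 lower, with sums of 1833 to 2473 against 1402 to 1732. Of 8 endothelial markers 0 were called higher and 6 lower, with sums of 536 to 633 against 549 to 649. Nearly all of these sums came from *Kdr*, at 524 to 616 CPM in *Mettl3*-CKO and 481 to 624 CPM in control samples (log2 fold change 0.02), whereas *Cdh5*, an adhesion molecule of endothelial cells, was at 0.812 to 2.05 against 2.94 to 11.4 CPM (log2 fold change -1.86). Of 8 microglial markers 0 were called in either direction, with sums of 77.6 to 117 against 44.3 to 146, though all 8 log2 fold changes were above 0 (median 0.32). Of 5 tested Müller glia markers 1 was called higher and 1 lower. Of 5 tested markers of the retinal pigment epithelium 0 were called higher and 3 lower, and of 4 astrocyte markers 0 and 2. Over all genes tested, 6.49% were called higher and 4.05% lower. Other marker lists are not described here. No marker of these lists was at 0 in all samples. *Bax* without controls 1 and 4, the former with the highest rod sum and the latter with the lens RNA, was 0.30 as given above.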

How the data were processed

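Bulk RNA-seq of p7 retina (4 *Mettl3*-CKO, 4 control libraries) was analysed from 1 table of read counts per gene. According to the study's methods and the submitters' processing notes, the authors filtered reads, aligned them to GRCm38 (mm10) by HISAT2 and assigned them to genes by featureCounts, and the deposited counts are whole numbers that were not normalized. The annotation release and strand setting are not given in the sources used here. Samples were matched to columns by their labels.

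The genotypes were compared over all genes with edgeR 4.0.16 in R 4.3.3: filterByExpr (17998 of 54532 genes kept), TMM scaling (factors 0.969 to 1.01), glmQLFit and glmQLFTest with genotype as the 1 term, two-sided, with Benjamini-Hochberg adjustment over all genes tested and a threshold of 0.05. The standard error is the absolute log2 fold change divided by the square root of F, and the 95% interval uses the moderated degrees of freedom. The biological coefficient of variation was 15.0%. CPM are TMM-scaled, log2 CPM have a prior count of 2, and FPKM use deposited gene lengths and total counts. The test was checked on simulated counts. No libraries of the same group were identical, and pairs within a group differed by a chi-square of at least 5.01 per gene. Pairs across groups were not compared.

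The alternatives were DESeq2 1.42.0, limma 3.58.1 (voom with sample quality weights), RLE, upper quartile or no scaling factors, no low-count filter, the replicate number as a block, each sample left out, controls 1 and 4 left out, and a threshold of 0.01. The members and gene lists were chosen with earlier results of these data known. All members are named. In each pathway list, the called genes are named or, where fewer than 2 are called, the 2 with the largest absolute log2 fold change, and other genes are said to be named after their values were seen. Promoters are from RefSeq (GRCm38.p6) and transcripts from GENCODE vM21.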

Additional observations from a re-analysis of the deposited data

Results flagged for a closer look

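*Bid* in *Mettl3*-CKO sample 1 lay apart from the other samples of its group. It was at 3.89 on the log2 CPM scale against 3.59 to 3.64 in *Mettl3*-CKO samples 2 to 4, and its gap to the nearest sample was 0.832 of the range of the group, just above Dixon's critical value for 4 samples. Of 24 groups of 4 samples examined, chance would single out about 1.2, and 1 was found. *Bid* was also highest in control 1 among the controls.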

How the results depend on the processing

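Counts of genes called over the whole table (1168 higher, 729 lower) were 2142 and 1568 in limma voom and 439 and 147 at an adjusted p under 0.01, and ranged from 509 to 1882 and from 185 to 1289 when 1 sample was left out. The fewest calls came without *Mettl3*-CKO sample 1 and the most without control 1. Members called higher (1) were 0 with RLE size factors, with the replicate block, without controls 1 and 4 and at an adjusted p under 0.01, 2 in limma voom, and 0 to 2 with 1 sample left out. Members called lower were 0 under every alternative run. Of the death receptor genes (1 higher), 3 were called in DESeq2, with total counts only and in limma voom, 2 with no low-count filter and with the replicate block, 0 without controls 1 and 4, and 0 to 3 with 1 sample left out. Upstream regulators called lower (0) were 1 in DESeq2, 2 in limma voom, 1 without controls 1 and 4 and 0 to 2 with 1 sample left out, and 1 apoptosome or caspase gene was called lower in limma voom. The p53 targets called higher (7) were 6 or 7 under these settings and 5 to 7 with 1 sample left out.

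The log2 fold change changed sign for *Bid* in limma voom (0.11) and without controls 1 and 4 (0.13), and for *Bcl2* in the same settings (-0.065 and -0.050). With 1 sample left out the ranges were -0.12 to 0.15 for *Bid*, -0.078 to 0.21 for *Bcl2*, -0.076 to 0.17 for *Bbc3* and -0.037 to 0.11 for *Bcl2l1*, so that the direction of these 4 genes is not settled. The direction of *Bax*, *Mcl1*, *Bak1*, *Pmaip1*, *Bcl2l11* and *Hrk* was kept in all alternatives run, and the difference in the log2 ratio of *Bax* to *Bcl2* was 0.13 to 0.50. The cause of these changes was not tested.

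The replicate block, in which same-numbered samples are treated as pairs, gave 1198 genes higher and 660 lower and left *Bax* at 0.40 (adjusted p = 0.0672). Samples of the same number correlated at -0.11, 0.22, -0.11 and 0.25 in their deviations from the group means, and not every sample correlated best with its own number, so the numbers were not taken as a pairing.

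At this depth, *Pmaip1* and *Hrk* have the fewest counts of the members and the widest intervals beside *Bcl2*.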
